A study of Mus musculus with 6 samples.

Results

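The collagen genes described here are the 44 genes whose symbol in the gene abundance tables has the form Col, a number, a and a number, among 46517 gene IDs listed in each table. They were sorted by textbook class into 11 fibrillar collagens, 8 basement membrane collagens and 25 others. The others were 9 fibril-associated collagens (FACITs), 7 beaded filament or related collagens, 3 hexagonal network collagens, 4 transmembrane collagens, the anchoring fibril collagen Col7a1 and Col26a1, which was placed in no class. All 44 IDs matched protein-coding genes of the GENCODE vM21 annotation when the version suffix was left off, and 8 of them matched with it.

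RNA was sequenced from E14TG2a, a mouse embryonic stem cell line labelled wild type, at 3 stages with 2 libraries each, which the labels call biological replicates. The stages were untreated stem cells kept on gelatin with serum and LIF and without feeder cells (mESC), neuronal progenitors (NPC), and a stage labelled NC. NPC and NC carry neuronal differentiation as their treatment. NC is not spelled out in the labels and was read as the last stage that the design text names, terminally differentiated glutamatergic pyramidal neurons. All 6 samples carry embryo blastocyst as tissue and embryonic stem cells as cell type, and the titles alone separate NPC from NC. The 6 pluripotency markers summed to 4311 and 4428 TPM in mESC, 24.3 and 18.5 TPM in NPC, and 19.9 and 24.2 TPM in NC. The 8 neuron markers summed to 101 and 141 TPM in mESC, 779 and 1034 TPM in NPC, and 3915 and 3510 TPM in NC. Markers of neural progenitors summed to 44.1 and 55.2 TPM in mESC, 845 and 743 TPM in NPC, and 1186 and 386 TPM in NC, so the NC libraries still held progenitor transcripts. Fabp7 made up much of the NC sums, with 792 and 164 TPM there and 34.1 and 68.1 TPM in NPC. Pax6, Hes5 and Sox1 were lower in both NC libraries than in either NPC library, and Nes and Slc1a3 overlapped.

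Collagens are secreted or membrane proteins built of chains that wind around each other in a helix. Fibrillar collagens form the cables of connective tissue, cartilage and bone, type IV collagen forms the sheet under epithelia, endothelia and the embryo's yolk sac endoderm, and the FACITs and type VI collagen link fibrils to their surroundings. In the nervous system most interstitial collagen is made by meninges, vessel walls, fibroblasts and Schwann cells, while neurons are known for a few collagens such as the transmembrane Col25a1.

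Levels are given in TPM, a transcript abundance corrected for gene length and brought to an equal total in every library, with the value of replicate 1 before that of replicate 2. Differences are on the log2(TPM + 1) scale, with the standard error (SE) and the limma p-value adjusted over 20232 tested genes. A gene was tested where at least 2 of the 6 libraries reached 1 TPM, which 33 of the 44 collagens did, and called at an adjusted p under 0.05. With 2 libraries a stage, the p-values measure only the spread between these libraries, and the 3 comparisons share samples. Bulk RNA cannot tell fewer cells of a type from less RNA per cell.

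By TPM, basement membrane chains made up most of the collagen transcripts in mESC and NPC, while fibrillar chains held the larger share in NC. The deposited coverage, the mean read depth over a gene, weighs the genes differently. In NC it was 201 and 230 for Col4a1, 100 and 238 for Col3a1, and 72.3 and 32.9 for Col1a2. In TPM these genes had 285 and 282, 244 and 502, and 235 and 94.7. The class shares below hold for TPM and were not computed from coverage. The 44 genes summed to 755 and 322 TPM in mESC, 1826 and 1369 TPM in NPC, and 1691 and 1636 TPM in NC, between 0.0322% and 0.183% of all TPM. The mESC libraries were the lowest and differed most from each other, and the NPC and NC libraries overlapped. Basement membrane collagens made up 90.6% and 87.2% of collagen TPM at the mESC stage, 86.4% and 79.2% at NPC, and 36.0% and 34.9% at NC. Fibrillar collagens made up 4.42% and 5.98% at mESC, 9.57% and 14.1% at NPC, and 43.5% and 49.1% at NC. The remaining collagens held 4.98% and 6.83% at mESC, 4.06% and 6.71% at NPC, and 20.5% and 15.98% at NC. The NC shares of all 3 classes lay outside the range of the other 4 libraries.

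**Figure D1:**
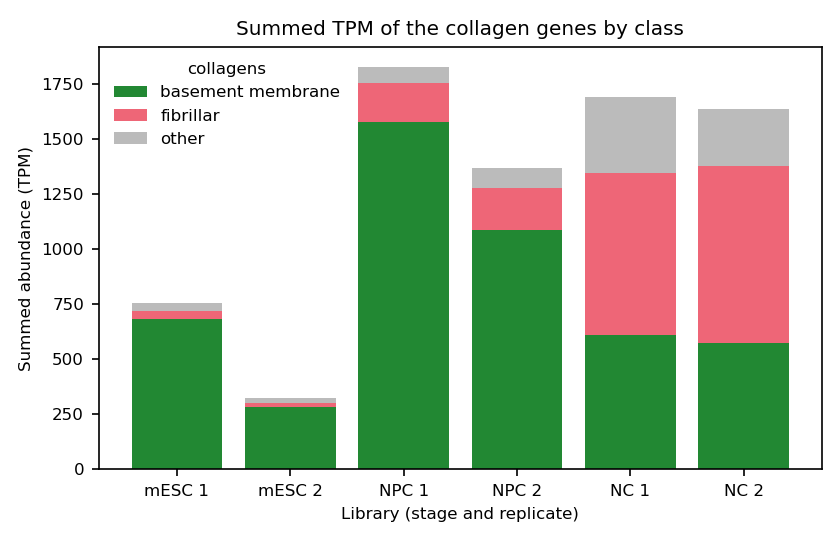
Summed TPM of the 11 fibrillar, 8 basement membrane and 25 other collagens in each of the 6 libraries, in the order mESC, NPC, NC. Basement membrane chains sum to 1577 and 1084 TPM in the NPC libraries and to 609 and 571 TPM in the NC libraries, where fibrillar chains reach 735 and 804 TPM.

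Collagens of at least 10 TPM numbered 3 and 3 in the mESC libraries, 11 and 11 in those of NPC, and 21 and 19 in those of NC. In mESC the 3 genes were Col4a1, Col4a2 and Col18a1, all of the basement membrane. The leading collagen was Col4a1 in mESC replicate 1, in both NPC libraries and in NC replicate 1, Col18a1 in mESC replicate 2 and Col3a1 in NC replicate 2.

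Among the 33 tested collagens, 18 rose and 2 fell in NPC against mESC. Of all tested genes 26.0% were called higher and 14.0% lower in that comparison (40.0% in either direction). From NPC to NC 16 collagens rose and 4 fell, where 15.2% of all tested genes were called higher and 10.1% lower (25.3% in either direction). In NC against mESC 26 rose and 3 fell, where 37.8% of all tested genes were called higher and 22.1% lower (59.9% in either direction). The median log2 difference of the tested collagens was 1.25, 1.22 and 2.72 in these 3 comparisons, against 0.18, 0.11 and 0.31 for all tested genes. The filter kept a collagen that is high in 1 stage only because of that stage, so counts and medians of the tested collagens describe them and do not stand for all 44. After median-of-ratios scaling the median of all genes was -0.01 in NPC against mESC and 0.05 in NC against mESC, so a collagen's difference is read against those shifts. The share of higher among all calls was 65.0%, 60.1% and 63.2% in the 3 comparisons as deposited. It was 52.7%, 54.6% and 52.3% after median-of-ratios scaling, 51.2%, 47.7% and 47.2% after quantile normalization, and 58.2%, 47.0% and 53.0% in FPKM. The collagen counts depended on single libraries, with 13 called in NPC against mESC without mESC replicate 2 and 12 with NPC replicate 2 left out. For NC against NPC, 3 were called without NPC replicate 1 and 10 with NPC replicate 2 left out, while over all genes 309 and 1276 were called.

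**Figure D2:**
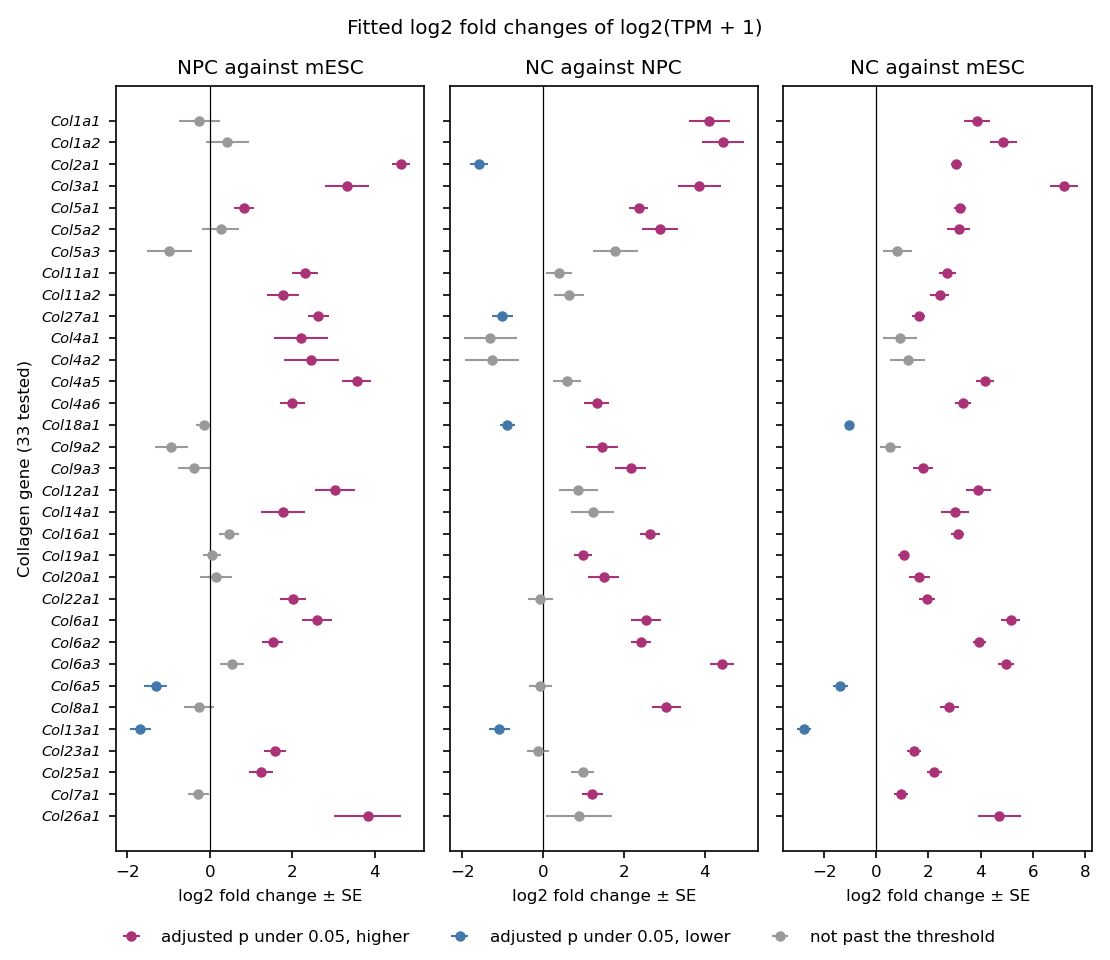
Log2 difference on the log2(TPM + 1) scale of the 33 tested collagens in the 3 comparisons between stages, with 1 panel per comparison, bars for the SE, and colours for collagens called higher or lower at an adjusted p under 0.05 and grey for the others. The largest positive difference is that of Col3a1 in NC against mESC (7.20) and the largest negative one that of Col13a1 in the same comparison (-2.76).

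Col4a1 (ENSMUSG00000031502.9, chromosome 8, 11198423 to 11312826, mm10) and Col4a2 (ENSMUSG00000031503.12, chromosome 8, 11312805 to 11449287) encode the chains of the common type IV network found in all basement membranes. They lie head to head on opposite strands, and their annotated gene bodies overlap by 22 bases. The RefSeq windows around both starts (GRCm38.p6, from 250 bases before to 50 bases after the start) share 78 bases. They are shown because the pair is read outward from 1 stretch of DNA, beside the windows of Col3a1 and Col1a2, the fibrillar genes that reached the highest levels in NC. Capitals mark CCAAT, the GC box GGGCGG and TATAAA, each searched on both strands, and each sequence runs along the strand of its gene.
Col4a2, chr8:11312555-11312854, plus strand: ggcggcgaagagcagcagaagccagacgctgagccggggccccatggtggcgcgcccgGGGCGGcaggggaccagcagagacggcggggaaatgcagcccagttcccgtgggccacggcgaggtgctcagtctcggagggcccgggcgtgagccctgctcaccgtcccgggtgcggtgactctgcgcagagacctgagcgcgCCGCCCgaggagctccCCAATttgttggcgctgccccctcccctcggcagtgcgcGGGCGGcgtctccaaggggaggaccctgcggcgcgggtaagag
Col4a1, chr8:11312777-11313076, minus strand: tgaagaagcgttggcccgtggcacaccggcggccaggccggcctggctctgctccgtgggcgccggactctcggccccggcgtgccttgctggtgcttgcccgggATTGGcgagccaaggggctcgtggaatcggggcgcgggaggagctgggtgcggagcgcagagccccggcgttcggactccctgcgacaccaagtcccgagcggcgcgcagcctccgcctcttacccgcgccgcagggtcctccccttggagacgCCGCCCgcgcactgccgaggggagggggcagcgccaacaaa
Col3a1, chr1:45311288-45311587, plus strand: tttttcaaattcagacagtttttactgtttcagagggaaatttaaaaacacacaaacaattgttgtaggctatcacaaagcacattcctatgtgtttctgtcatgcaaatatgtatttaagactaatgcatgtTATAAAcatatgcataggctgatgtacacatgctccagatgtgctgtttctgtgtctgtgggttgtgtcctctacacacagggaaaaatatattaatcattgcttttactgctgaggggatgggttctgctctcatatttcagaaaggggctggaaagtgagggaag
Col1a2, chr6:4505368-4505667, plus strand: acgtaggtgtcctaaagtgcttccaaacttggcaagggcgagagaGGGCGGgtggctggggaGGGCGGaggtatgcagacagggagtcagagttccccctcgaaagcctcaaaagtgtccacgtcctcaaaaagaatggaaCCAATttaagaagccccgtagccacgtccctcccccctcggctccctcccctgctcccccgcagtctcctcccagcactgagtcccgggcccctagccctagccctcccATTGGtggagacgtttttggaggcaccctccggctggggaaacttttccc

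The GC box at chr8:11312812-11312817 lies in the shared bases and is therefore capitalised in both type IV windows. The Col4a2 window held 3 GC boxes and 1 CCAAT, the Col4a1 window 1 of each, the Col1a2 window 2 of each, and the Col3a1 window 1 TATAAA and neither of the others. Of all 32851 RefSeq windows of this length, 37.4% held CCAAT, 35.7% held GGGCGG and 13.6% held TATAAA. The Col4a1 and Col4a2 windows had 37 and 33 CpG dinucleotides at 74.0% and 73.7% GC, the Col1a2 window 13 at 61.0% and the Col3a1 window 0 at 37.7%, against a median of 7 and 52.7% over all windows. Windows were found for 35 of the 44 collagens, and that of Col1a2 is set by a RefSeq start inside the gene as the tables place it. A match of letters is a description of these windows and not a binding site.

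Col4a1 had 331 and 67.5 TPM in the mESC libraries, 867 and 566 TPM in NPC, and 285 and 282 TPM in NC. Col4a2 had 168 and 32.8 TPM in mESC, 520.2 and 334 TPM in NPC, and 165 and 180.1 TPM in NC. Both genes were highest in the 2 NPC libraries, and mESC replicate 1 stood close to the NC level. The mESC libraries differed from each other 4.90-fold in Col4a1 and 5.10-fold in Col4a2, replicate 1 being the higher. In NPC against mESC, Col4a1 rose by 2.22 (SE 0.662, adjusted p = 0.037) and Col4a2 by 2.47 (SE 0.675, adjusted p = 0.0275). Without mESC replicate 2 the differences were 1.08 and 1.31, and without mESC replicate 1 they were 3.36 and 3.62. The Col4a1 call was lost in 6 of 14 alternative settings (adjusted p from 0.0669 to 0.181) and the Col4a2 call in 5 (0.0723 to 0.148), among them leaving out either NPC or either NC library. Neither gene was called in NC against NPC (-1.30, adjusted p = 0.196 for Col4a1 and -1.27, adjusted p = 0.215 for Col4a2), although the groups did not overlap. The SE of both falls (0.662 and 0.675) was that of NPC against mESC, because it is pooled over the 3 stages. It takes in the mESC spread, so the missing calls do not rest on the NPC and NC libraries alone. With either mESC library left out, both falls kept their size (-1.30 and -1.27) and passed the threshold. In NC against mESC the differences were 0.915 and 1.199, neither called, and 2.053 and 2.357, both called, without mESC replicate 1. Without mESC replicate 2 that of Col4a1 was -0.223. The ratio of Col4a1 to Col4a2 TPM stayed between 1.56 and 2.05 in all 6 libraries, including the mESC pair, where it was 1.97 and 2.05.

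Parietal endoderm, the extraembryonic cell type that lays down Reichert's membrane in the mouse, is a rich source of both chains. The 10 markers of parietal and primitive endoderm summed to 672 and 152 TPM in mESC, 622 and 430 TPM in NPC, and 202 and 350 TPM in NC, and no marker was at 0 in any library. All 10 were higher in mESC replicate 1 than in replicate 2, as were Col4a1, Col4a2 and 55.0% of all tested genes. In NPC 8 of the 10 were higher in replicate 1 (44.5% of all tested genes), and in NC 1 of the 10 was (46.2%). Gata4, a transcription factor of this lineage, had 38.9 and 8.42 TPM in mESC, 58.1 and 40.2 TPM in NPC, and 8.65 and 18.0 TPM in NC. Sox17, another such factor, had 22.6 and 5.48 TPM in mESC, 77.7 and 53.5 TPM in NPC, and 6.95 and 11.3 TPM in NC. Like these factors, Foxa2 and Fst were highest in the NPC libraries. The rest of the list was not, with Gata6, Sox7, Dab2, Srgn and Lamb1 highest in mESC replicate 1 and Thbd highest in NC. Of the list 3 markers rose in NPC against mESC, 1 rose and 2 fell in NC against NPC, and 2 rose and 1 fell in NC against mESC, where 40.0%, 25.3% and 59.9% of all tested genes were called in either direction. The part of these cells in the type IV values was not tested.

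**Figure D3:**
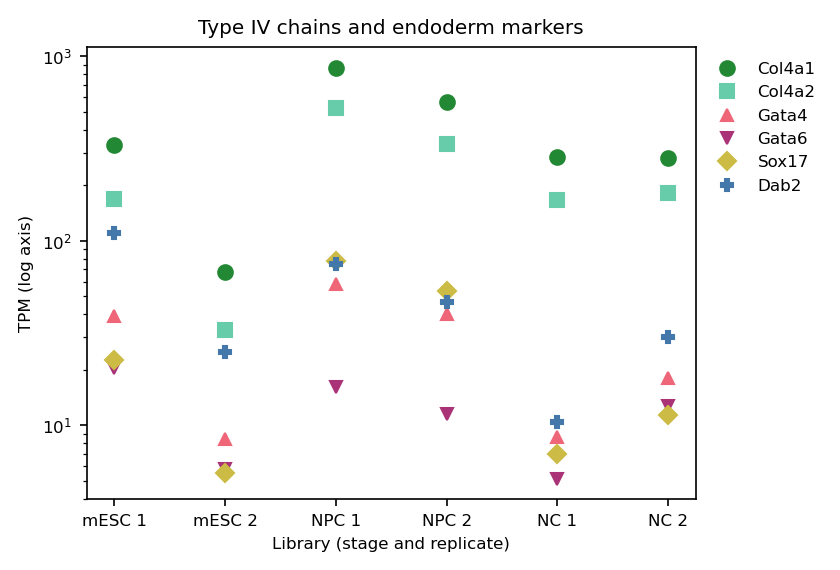
TPM, on a log axis, of Col4a1, Col4a2 and 4 endoderm markers (Gata4, Gata6, Sox17 and Dab2) in each library, 1 symbol per gene. All 6 genes are higher in mESC replicate 1 than in replicate 2 and in NPC replicate 1 than in replicate 2, while in NC the markers are higher in replicate 2 with Col4a1 at 285 and 282 TPM.

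The second type IV pair behaved differently. Col4a5 and Col4a6, head to head on the X chromosome with 1308 bases between them, encode chains of basement membranes such as those of smooth muscle and kidney. Col4a5 had 1.15 and 0.260 TPM in mESC, 15.3 and 22.1 TPM in NPC, and 32.6 and 24.7 TPM in NC. It rose by 3.56 in NPC against mESC (SE 0.342, adjusted p = 0.000492) and did not pass in NC against NPC (0.60, adjusted p = 0.246). Col4a6 had 0.150 and 0.0938 TPM in mESC, 2.63 and 4.57 TPM in NPC, and 11.4 and 9.22 TPM in NC, with no overlap between stages. It rose by 2.00 in NPC against mESC (SE 0.300, adjusted p = 0.00279) and by 1.33 in NC against NPC (adjusted p = 0.0228), the second call being lost in 8 of 14 alternatives, among them leaving out any of the 6 libraries (adjusted p from 0.0532 to 0.157). Col4a5 exceeded Col4a6 in every library, by 5.83-fold and 4.84-fold in NPC and by 2.85-fold and 2.68-fold in NC. The third pair, Col4a3 and Col4a4, whose chains join Col4a5 in the kidney glomerulus, stayed at or below 0.421 TPM and was not tested.

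Col18a1 (ENSMUSG00000001435.13, chromosome 10, 77052178 to 77166548), whose protein carries the endostatin fragment at its end, was abundant at every stage. It had 184 and 180.0 TPM in mESC, 172 and 157 TPM in NPC, and 105 and 74.6 TPM in NC. NC lay below all other libraries, a fall of 0.88 against NPC (SE 0.183, adjusted p = 0.0172) and of 1.03 against mESC (adjusted p = 0.00334), while NPC against mESC did not pass (-0.15, adjusted p = 0.571). The call against NPC was lost without either mESC or either NPC library and without the filter (adjusted p from 0.0543 to 0.140). Col18a1 overlaps 8825 bases of Slc19a1 on the opposite strand, which had 21.3 to 41.6 TPM, and a strand setting for the quantification is not given in the sources used. Its relative Col15a1, a proteoglycan of vessel and muscle basement membranes, was listed at 0 in both mESC libraries, at 0.195 and 0.355 TPM in NPC, and at 9.001 and 0.357 TPM in NC, where 1 library held nearly all of it.

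Of the basement membrane collagens, 5 of 8 were tested. In NPC against mESC 4 of them were called higher, Col4a1, Col4a2, Col4a5 and Col4a6. Between NC and NPC Col4a6 rose and Col18a1 fell, and in NC against mESC Col4a5 (4.16) and Col4a6 (3.33) rose and Col18a1 fell. Over all tested genes 40.0% were called in NPC against mESC, 25.3% in NC against NPC and 59.9% in NC against mESC.

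Some fibrillar collagens were called at the step to NPC and others at the step to NC. Col1a1 (ENSMUSG00000001506.10, chromosome 11, 94936224 to 94953042) and Col1a2 (ENSMUSG00000029661.15, chromosome 6, 4504814 to 4541544) encode type I collagen, the main collagen of bone, skin and tendon. Col1a1 had 6.20 and 2.49 TPM in mESC, 1.87 and 5.15 TPM in NPC, and 93.0 and 55.7 TPM in NC. Col1a2 had 6.25 and 2.60 TPM in mESC, 4.34 and 7.83 TPM in NPC, and 235 and 94.7 TPM in NC. For both genes the mESC and NPC libraries overlapped and each NC library lay far above them. In NC against NPC Col1a1 rose by 4.12 (SE 0.504, adjusted p = 0.00427) and Col1a2 by 4.45 (SE 0.526, adjusted p = 0.00402). Both calls were lost without NPC replicate 1 (adjusted p = 0.0514 and 0.0537), and the Col1a2 difference was 3.8 without NC replicate 1 and 5.10 without NC replicate 2. Neither passed in NPC against mESC (-0.25, adjusted p = 0.727 and 0.43, adjusted p = 0.565). In NC against mESC they rose by 3.87 (adjusted p = 0.000918) and 4.88 (adjusted p = 0.000423). Type I collagen is assembled with more Col1a1 than Col1a2 chains. The Col1a1 to Col1a2 ratio of TPM was 0.396 and 0.588 in NC and 0.990 and 0.956 in mESC. It depends on the measure, since the coverage of Col1a1 was 4.10 and 2.50 in mESC, above that of Col1a2 (1.90 and 1.16). In NC the coverage was 59.8 and 41.0 for Col1a1 and 72.3 and 32.9 for Col1a2. The proportion of the chains was not tested.

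Col3a1 (ENSMUSG00000026043.17, chromosome 1, 45311538 to 45349706), the fibrillar collagen of vessel walls and meninges, showed the largest difference between stages of all 33 tested collagens. It had 2.30 and 0.723 TPM in mESC, 14.6 and 35.9 TPM in NPC, and 244 and 502 TPM in NC, so that every library of a stage lay above every library of the one before. It rose by 3.33 in NPC against mESC (SE 0.538, adjusted p = 0.00376), by 3.87 in NC against NPC (SE 0.538, adjusted p = 0.00573) and by 7.20 in NC against mESC (adjusted p = 0.000101). The first call was lost without mESC replicate 2 (adjusted p = 0.0585) and the second without NPC replicate 1 (adjusted p = 0.0572, difference 3.25). Its neighbour Col5a2, 24614 bases away and read toward it, encodes a chain of type V collagen, which starts and narrows fibrils. Col5a2 had 2.34 and 0.908 TPM in mESC, 1.95 and 2.13 TPM in NPC, and 32.4 and 14.3 TPM in NC. Unlike Col3a1 it was higher in NC replicate 1 than in replicate 2, and its NPC and mESC libraries overlapped. It rose by 2.90 in NC against NPC (SE 0.445, adjusted p = 0.00736), a call lost without either NPC library (adjusted p = 0.0572 and 0.0754), and did not pass in NPC against mESC (0.27, adjusted p = 0.676).

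Col5a1, the other main type V chain, had 7.39 and 5.02 TPM in mESC, 11.2 and 12.1 TPM in NPC, and 57.4 and 71.8 TPM in NC, with no overlap between stages. It rose by 2.37 in NC against NPC (SE 0.234, adjusted p = 0.00323), a call that held in all 14 alternatives. The smaller difference in NPC against mESC (0.83, adjusted p = 0.0305) was lost in 7 of 14, among them median-of-ratios scaling and leaving out mESC replicate 2 or either NPC library (adjusted p from 0.0514 to 0.165). Col5a3, the third type V chain, had 2.89 and 1.31 TPM in mESC, 0.531 and 0.508 TPM in NPC, and 1.96 and 8.30 TPM in NC. It was called in none of the 3 comparisons (limma adjusted p from 0.0577 to 0.245), and its NC libraries differed 4.23-fold. In NC against NPC it was called with a pseudocount of 0.1 (2.75, adjusted p = 0.047) and with NC replicate 1 left out (adjusted p = 0.0249).

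Col2a1 (ENSMUSG00000022483.15, chromosome 15, 97975602 to 98004695), the fibrillar collagen of cartilage and notochord that is also made in the early neuroepithelium, followed another order. It had 3.02 and 3.73 TPM in mESC, 116 and 101 TPM in NPC, and 42.3 and 29.9 TPM in NC. NPC was the highest stage in both libraries and NC lay between NPC and mESC without overlap. Col2a1 rose by 4.65 in NPC against mESC (SE 0.220, adjusted p = 4.28e-05) and fell by 1.58 in NC against NPC (SE 0.220, adjusted p = 0.00573), the second call being lost without NPC replicate 1 (adjusted p = 0.0771). Col11a1 and Col11a2 encode chains of type XI collagen, which shares the cartilage fibril with Col2a1. Col11a1 had 1.66 and 1.27 TPM in mESC, 10.5 and 11.9 TPM in NPC, and 20.5 and 11.1 TPM in NC. It rose by 2.31 in NPC against mESC (SE 0.322, adjusted p = 0.00208), and its NC libraries overlapped those of NPC (0.41, adjusted p = 0.396). Col11a2 was lower, at 0.461 and 0.585 TPM in mESC, 3.72 and 4.81 TPM in NPC, and 4.70 and 10.7 TPM in NC. It rose by 1.78 in NPC against mESC (adjusted p = 0.0111), a call lost without any 1 of the mESC and NPC libraries and without the filter (adjusted p from 0.0512 to 0.0844). Col27a1, a fibrillar collagen of cartilage, also peaked in NPC, with 0.853 and 0.605 TPM in mESC, 8.72 and 10.8 TPM in NPC, and 4.04 and 4.66 TPM in NC. It rose by 2.64 in NPC against mESC (adjusted p = 0.000511) and fell by 1.00 in NC against NPC (adjusted p = 0.0326), the fall being lost in 9 of 14 alternatives, leaving out any of the 6 libraries included (adjusted p from 0.0562 to 0.184). Col24a1, at 1.60 TPM or below in every library, was not tested.

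Counted as a class, 6 of 10 tested fibrillar collagens rose in NPC against mESC, Col2a1, Col3a1, Col5a1, Col11a1, Col11a2 and Col27a1. In NC against NPC Col1a1, Col1a2, Col3a1, Col5a1 and Col5a2 rose while Col2a1 and Col27a1 fell. In NC against mESC 9 of 10 rose, the exception being Col5a3, and the median log2 difference of the 10 was 3.12, against 0.31 for all tested genes. The shares called over all tested genes were 40.0%, 25.3% and 59.9% in these comparisons.

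**Figure D4:**
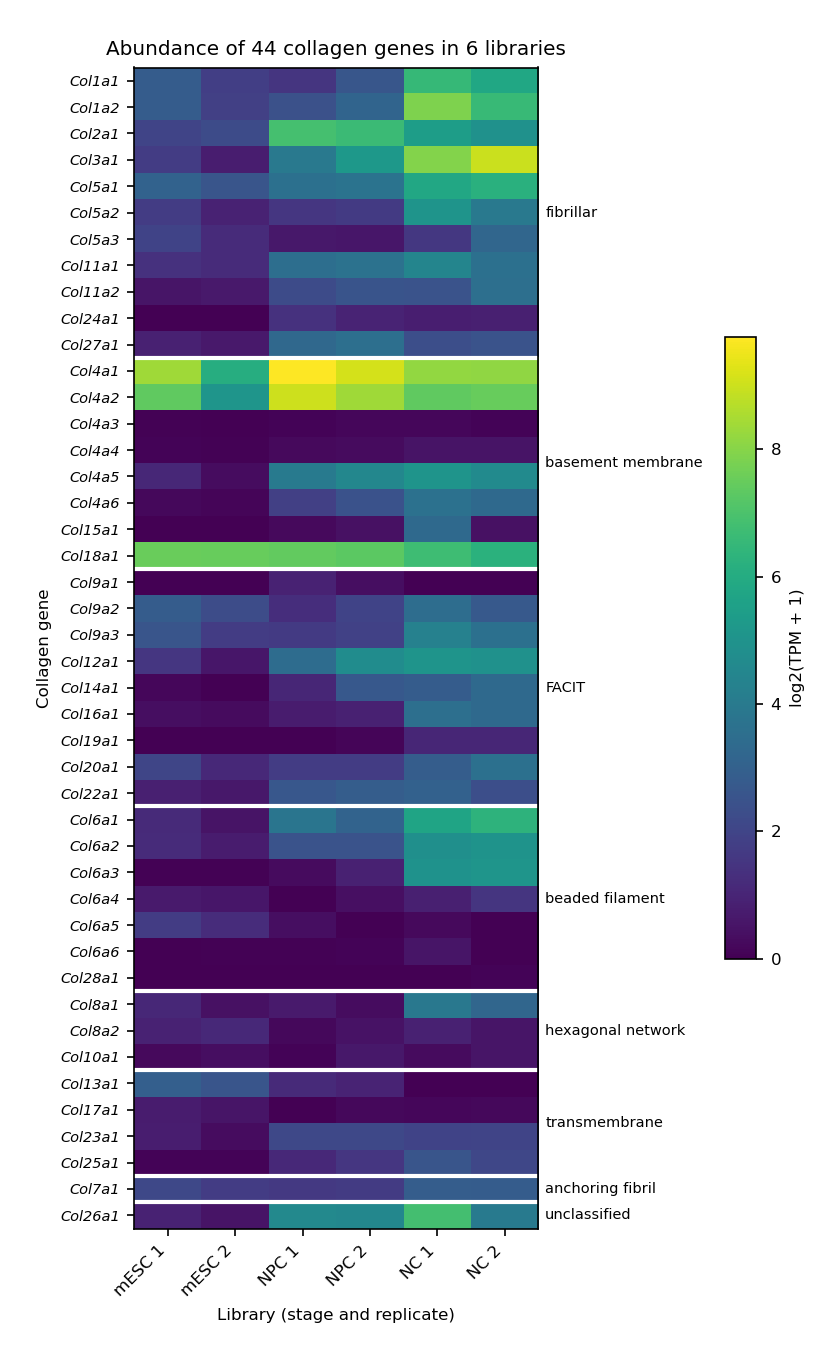
Abundance of the 44 collagens as log2(TPM + 1), by colour, with 1 row per gene grouped by class and 1 column per library in the order mESC, NPC, NC. Col4a1, Col4a2 and Col18a1 are bright in every library, Col4a1, Col4a2 and Col2a1 are highest in NPC, and Col1a1, Col1a2, Col3a1, Col6a1, Col6a2 and Col6a3 are highest in NC.

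Type VI collagen, a beaded filament around cells that muscle, fibroblasts and Schwann cells produce, is assembled from 1 chain of each of Col6a1, Col6a2 and a larger chain such as Col6a3. Col6a1 had 1.22 and 0.428 TPM in mESC, 12.8 and 7.60 TPM in NPC, and 50.8 and 77.8 TPM in NC. Col6a2, 85161 bases from it on the same strand of chromosome 10, had 1.28 and 0.672 TPM in mESC, 4.64 and 4.64 TPM in NPC, and 27.7 and 30.9 TPM in NC. Both rose at each step without overlap, by 2.61 and 1.53 in NPC against mESC (adjusted p = 0.00212 and 0.00422) and by 2.55 and 2.43 in NC against NPC (adjusted p = 0.00618 and 0.00338). The NC against NPC calls were lost without NPC replicate 1 (adjusted p = 0.0514 for Col6a1 and 0.0513 for Col6a2) and that of Col6a1 also without NPC replicate 2 (adjusted p = 0.0523). Col6a3 (ENSMUSG00000048126.15, chromosome 1, 90765923 to 90843971) was at 0.0300 and 0.0386 TPM in mESC, 0.220 and 0.863 TPM in NPC, and 30.5 and 32.6 TPM in NC. It did not pass in NPC against mESC (0.54, adjusted p = 0.184), although with a pseudocount of 0.1 that difference was 2.05 and passed (adjusted p = 0.0373). It rose by 4.43 in NC against NPC (SE 0.290, adjusted p = 0.00286), a call that held in all 14 alternatives. The ratio of Col6a2 to Col6a3 TPM was 42.6 and 17.4 at mESC, 21.1 and 5.38 at NPC, and 0.908 and 0.948 at NC. The alternative larger chain Col6a5 went the other way, with 2.35 and 1.38 TPM in mESC, 0.293 and 0 TPM in NPC, and 0.172 and 0 TPM in NC. It fell by 1.31 in NPC against mESC (adjusted p = 0.0118, lost without NPC replicate 2 at 0.0818) and by 1.38 in NC against mESC (adjusted p = 0.00608). Col6a4, Col6a6 and the related Col28a1 reached at most 1.85 TPM and were not tested.

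The FACITs sit on the surface of fibrils. Col12a1, which coats type I fibrils, had 1.90 and 0.513 TPM in mESC, 10.03 and 26.0 TPM in NPC, and 31.8 and 29.5 TPM in NC. It rose by 3.04 in NPC against mESC (SE 0.484, adjusted p = 0.00354), with 2.40 without NPC replicate 2 and 3.69 without NPC replicate 1, and did not pass in NC against NPC (0.87, adjusted p = 0.232). Col9a3, a type IX chain of cartilage and eye, had 4.98 and 2.36 TPM in mESC, 2.18 and 2.698 TPM in NPC, and 18.7 and 11.04 TPM in NC. It rose by 2.17 in NC against NPC (adjusted p = 0.0107, lost without NC replicate 1, either NPC library or the filter at 0.0529 to 0.0947) and by 1.78 in NC against mESC (adjusted p = 0.00703, lost without mESC replicate 2 at 0.0586). Tcfl5, which overlaps 234 bases of Col9a3 on the opposite strand, had 41.8 and 46.7 TPM in mESC, 4.92 and 6.49 TPM in NPC, and 2.49 and 4.15 TPM in NC. Col16a1, a FACIT of many tissues, had 0.301 and 0.227 TPM in mESC, 0.653 and 0.843 TPM in NPC, and 10.8 and 9.21 TPM in NC. It rose by 2.65 in NC against NPC (SE 0.245, adjusted p = 0.00308), and this call held in all 14 alternatives.

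The lower FACITs are given by their calls. Col14a1, at 0.120 and 0 TPM in mESC, 1.07 and 5.41 TPM in NPC, and 6.11 and 9.23 TPM in NC, rose by 1.78 in NPC against mESC (adjusted p = 0.0364). That difference was 0.97 with NPC replicate 2 left out and 2.60 with NPC replicate 1 left out, and its call was lost in 8 of 14 alternatives (adjusted p from 0.0591 to 0.194). Col22a1, a FACIT of tissue junctions, rose by 2.02 in NPC against mESC (adjusted p = 0.00297) and did not pass in NC against NPC (-0.07, adjusted p = 0.892), with 7.15 and 4.14 TPM in NC and 5.35 and 6.29 TPM in NPC. Col9a2, which pairs with Col9a3 in type IX collagen, rose by 1.47 in NC against NPC (adjusted p = 0.0389) and Col20a1 by 1.5 (adjusted p = 0.0358). These calls were lost without any 1 of the 6 libraries, at adjusted p from 0.0509 to 0.228 over all losing settings for Col9a2 and from 0.0512 to 0.178 for Col20a1. Col19a1, which some interneurons are known to make, was listed at 0 in both mESC libraries, at 0 and 0.0842 TPM in NPC, and at 1.09 and 1.04 TPM in NC (adjusted p = 0.0209 against NPC, lost without either NPC library at 0.0828 and 0.117). Col9a1 was seen in NPC alone, at 0.919 and 0.287 TPM, was listed at 0 in the other 4 libraries and was not tested. Of the 8 tested FACITs 3 rose in NPC against mESC, 5 in NC against NPC and 7 in NC against mESC. Among all tested genes 40.0%, 25.3% and 59.9% were called, so the FACIT share in NPC against mESC is near that of all genes.

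Transmembrane collagens divided by direction. Col13a1, a collagen of cell adhesions and of the neuromuscular junction, had 6.77 and 4.94 TPM in mESC, 1.27 and 0.979 TPM in NPC, and was listed at 0 in both NC libraries. It fell by 1.68 in NPC against mESC (SE 0.260, adjusted p = 0.00314) and was lower, too, in NC against NPC (adjusted p = 0.0273) and NC against mESC (adjusted p = 0.000243). The call against NPC was lost without any 1 of the NPC and NC libraries, in FPKM and without the filter (adjusted p from 0.0557 to 0.162). Col25a1, a neuronal collagen whose shed ectodomain binds amyloid, had 0.0681 and 0.0751 TPM in mESC, 1.21 and 1.93 TPM in NPC, and 4.91 and 3.25 TPM in NC. It rose by 1.25 in NPC against mESC (adjusted p = 0.0148, lost without either mESC library or NPC replicate 2 at 0.0678 to 0.101) and by 2.23 in NC against mESC (adjusted p = 0.000896), and narrowly missed in NC against NPC (0.98, adjusted p = 0.0504). Col23a1 rose by 1.58 in NPC against mESC (adjusted p = 0.00448), with 3.36 and 3.32 TPM in NPC, against 0.711 and 0.236 TPM in mESC. Col17a1, the hemidesmosome collagen of epithelia, stayed at or below 0.678 TPM.

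Of the remaining collagens, Col8a1 forms hexagonal lattices in vessel walls and the cornea. It had 1.12 and 0.351 TPM in mESC, 0.611 and 0.249 TPM in NPC, and 14.0 and 8.25 TPM in NC, and rose by 3.05 in NC against NPC (SE 0.367, adjusted p = 0.00416), a call lost without NPC replicate 1 (adjusted p = 0.0512). Its partner Col8a2 and the growth plate collagen Col10a1 stayed at or below 1.18 TPM. Col7a1, the anchoring fibril of skin, had 3.35 and 2.34 TPM in mESC, 2.05 and 2.25 TPM in NPC, and 6.43 and 6.25 TPM in NC. It rose by 1.22 in NC against NPC (adjusted p = 0.0181), a call lost without any 1 of the NPC and NC libraries and without the filter (adjusted p from 0.0543 to 0.131). In NC against mESC it rose by 0.95 (adjusted p = 0.0181), which was lost without mESC replicate 2 and under quantile normalization (adjusted p = 0.0719 and 0.241). Col26a1 (ENSMUSG00000004415.14, chromosome 5, 136741759 to 136883209) had 0.911 and 0.429 TPM in mESC, 23.4 and 21.7 TPM in NPC, and 115 and 15.5 TPM in NC. It rose by 3.83 in NPC against mESC (SE 0.809, adjusted p = 0.0106), a call lost without any 1 of the mESC and NPC libraries and without the filter (adjusted p from 0.0635 to 0.112). The NC libraries lay on both sides of NPC (0.89, adjusted p = 0.463), and the rise in NC against mESC (4.72, adjusted p = 0.00287) was 3.32 without NC replicate 1, 6.13 without NC replicate 2 and not called without mESC replicate 2 (adjusted p = 0.0508).

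The NC libraries differed in how much of several collagens they held. Over 2-fold gaps between the NC replicates on the log2(TPM + 1) scale were seen for 6 of 33 tested collagens, where 8.60% of all tested genes had such a gap. For mESC and NPC the counts were 4 and 4 of 33, where 5.59% and 3.37% of all tested genes had one. Among collagens of at least 5 TPM in an NC library, TPM gaps over 2-fold were found for 7. NC replicate 1 held more Col15a1 (25.2-fold), Col26a1 (7.42-fold), Col1a2 (2.48-fold) and Col5a2 (2.26-fold), and NC replicate 2 more Col5a3 (4.23-fold), Col11a2 (2.28-fold) and Col3a1 (2.06-fold). The ratio of Col3a1 to Col1a2 was therefore 1.04 in NC replicate 1 and 5.30 in replicate 2. Col6a3, Col12a1, Col4a1 and Col7a1 were nearly equal in the 2 NC libraries. In mESC 28 of the 33 were higher in replicate 1, where 55.0% of all tested genes were, while in NPC it was 11 of 33 (44.5% of all tested genes) and in NC 20 of 33 (46.2%).

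**Figure D5:**
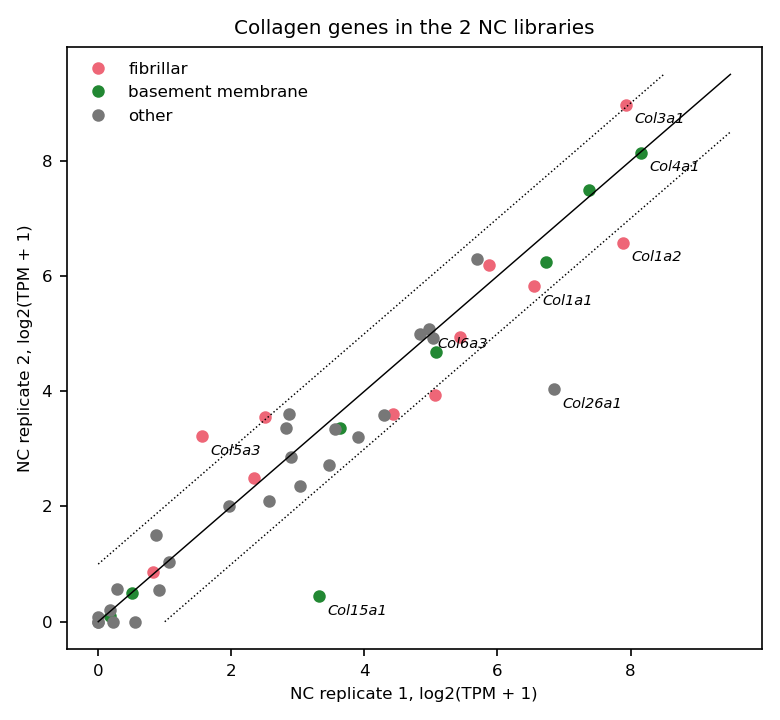
Log2(TPM + 1) of each collagen in NC replicate 1 (x axis) and NC replicate 2 (y axis), coloured by class, with a solid line of equal values and dotted lines at 2-fold either way. Col26a1 (115 and 15.5 TPM) and Col15a1 (9.001 and 0.357 TPM) lie farthest toward replicate 1 and Col5a3 (1.96 and 8.30 TPM) toward replicate 2, with Col6a3 (30.5 and 32.6 TPM) near the line.

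Markers of cells that make fibrillar and type VI collagen were present in NC. The 11 fibroblast markers summed to 38.2 and 14.8 TPM in mESC, 72.3 and 80.6 TPM in NPC, and 179 and 120.0 TPM in NC, with 10 of 11 at 1 TPM or more and none at 0 in either NC library. Dcn, which encodes the fibril-binding proteoglycan decorin, had 0 and 0.199 TPM in mESC, 0 and 0.504 TPM in NPC, and 20.1 and 22.4 TPM in NC. Pdgfrb, a growth factor receptor of fibroblasts and mural cells, had 1.83 and 1.11 TPM in mESC, 4.92 and 8.71 TPM in NPC, and 46.8 and 18.9 TPM in NC. Pdgfra had 24.8 and 5.46 TPM in mESC, 34.7 and 26.3 TPM in NPC, and 10.6 and 30.5 TPM in NC, and was called in no comparison. In NC against NPC Meox1 fell by 1.83 and Twist1 did not pass (-0.07). Thy1 had 58.3 and 2.31 TPM in NC, a large part of the sum in NC replicate 1. Of 10 tested fibroblast markers 4 rose in NPC against mESC, 4 rose and 1 fell in NC against NPC, and 8 rose in NC against mESC. Over all tested genes 40.0%, 25.3% and 59.9% were called in these comparisons, so the fibroblast share in NPC against mESC is near that of all genes. The 8 smooth muscle markers summed to 166 and 125 TPM in mESC, 43.8 and 47.8 TPM in NPC, and 321 and 435 TPM in NC, led by Acta2 at 184 and 213 TPM in NC. Tagln, an actin-binding protein of smooth muscle, rose in NC against NPC (3.67, adjusted p = 0.00293), with 89.5 and 172 TPM in NC, against 8.13 and 9.58 TPM in NPC. Actg2 rose as well (1.99, adjusted p = 0.023), with 7.60 and 2.24 TPM in NC, against 0.396 and 0.265 TPM in NPC. Of 6 tested smooth muscle markers 4 fell in NPC against mESC, 3 rose in NC against NPC, and 3 rose and 1 fell in NC against mESC. These counts stand beside the same 40.0%, 25.3% and 59.9% of all tested genes. Myh11 and Myocd stayed under 1 TPM in all 6 libraries. Their part in the collagen values was not tested.

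Other marker lists moved in their own ways. Cartilage markers summed to 10.6 and 7.97 TPM in mESC, 54.3 and 57.1 TPM in NPC, and 86.6 and 34.4 TPM in NC. Sox9 made up much of this, at 39.9 and 41.3 TPM in NPC and 0.176 and 0.299 TPM in mESC, and it is also a gene of neural progenitors. The cartilage matrix genes Acan and Matn1 stayed at or below 0.123 TPM in the NPC and NC libraries, where Col2a1 was at 29.9 TPM or more. Chad, another cartilage matrix gene, had 0.638 and 0.308 TPM in mESC, 1.86 and 1.66 TPM in NPC, and 0.311 and 0.633 TPM in NC. It rose in NPC against mESC (0.91, adjusted p = 0.0311) and fell by 0.91 in NC against NPC (adjusted p = 0.0448). Sox5 (2.13) and Sox6 (2.48), partners of Sox9 in cartilage, rose in NPC against mESC too, while Comp of the same list fell by 1.01. In NC against mESC Comp fell by 1.08 and Matn3 by 1.83. Of 6 tested cartilage markers 4 rose and 1 fell in NPC against mESC, and 1 fell in NC against NPC. In NC against mESC 3 rose and 2 fell. Over all tested genes 40.0%, 25.3% and 59.9% were called in these comparisons. Sox10, a transcription factor of neural crest and glia, had 0 and 0.285 TPM in mESC, 0.789 and 0.347 TPM in NPC, and 12.3 and 4.12 TPM in NC. Meningeal markers summed to 5.27 and 3.61 TPM in mESC, 40.7 and 74.2 TPM in NPC, and 39.6 and 67.7 TPM in NC, led in NPC and NC by Zic1, which neural progenitors express too, and in mESC by Ptgds. Of the 7 meningeal markers 4 rose and 1 fell in NPC against mESC, where 40.0% of all tested genes were called in either direction. The risers were Zic1 (4.88), Foxc2 (3.16), Foxd1 (2.18) and Slc6a13 (1.49), and Ptgds fell (-1.73). In NC against NPC Foxc2 (-1.85), Foxd1 (-1.66) and Slc6a13 (-1.36) fell and Ptgds rose (1.77), where 25.3% of all tested genes were called. In NC against mESC 3 of the 7 rose and none fell, where 59.9% of all tested genes were called. Foxc2 was at 9.93 and 8.71 TPM in NPC and at 2.38 and 1.41 TPM in NC. Endothelial markers summed to 46.9 and 27.3 TPM in mESC, 8.39 and 8.28 TPM in NPC, and 2.56 and 10.3 TPM in NC. Pericyte markers summed to 44.3 and 42.2 TPM in mESC, 74.2 and 81.4 TPM in NPC, and 72.2 and 43.8 TPM in NC, nearly all of it Notch3 and Anpep, with Rgs5 at or below 1.49 TPM. Astrocyte markers summed to 34.0 and 17.5 TPM in mESC, 72.2 and 77.7 TPM in NPC, and 157 and 48.9 TPM in NC, where Gfap was at 9.72 and 0.598 TPM. In NPC nearly all of the astrocyte sum was Slc1a3 (71.1 and 76.6 TPM), which is also on the neural progenitor list. In NC Slc1a3 had 87.1 and 45.9 TPM and Aldh1l1 59.3 and 1.89 TPM.

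Genes that make, bind and break down collagen were followed in 6 lists. Of 93 listed partner genes 80 were tested, and 22 rose and 9 fell in NPC against mESC, 28 rose and 1 fell in NC against NPC, and 46 rose and 6 fell in NC against mESC. Of all tested genes 40.0%, 25.3% and 59.9% were called in these comparisons, so the share of partner genes called in NPC against mESC is near that of all genes. Their median log2 differences were 0.40, 0.60 and 1.06 in these comparisons, beside 0.18, 0.11 and 0.31 for all tested genes. The NC against NPC total dropped to 4 when NPC replicate 1 was left out, to 11 with NPC replicate 2 left out and to 18 with NC replicate 2 left out.

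Of 21 tested folding and modification genes, 2 rose and 2 fell in NPC against mESC, 2 rose in NC against NPC, and 6 rose and 2 fell in NC against mESC. Each of these shares is below the 40.0%, 25.3% and 59.9% of all tested genes. Serpinh1, the collagen chaperone HSP47, had 310.2 and 104 TPM in mESC, 409 and 370.1 TPM in NPC, and 433 and 458 TPM in NC. It rose in NC against mESC (1.31, adjusted p = 0.0432) and did not pass in NPC against mESC (adjusted p = 0.0952). P4ha1, a catalytic subunit of the prolyl hydroxylase that stabilises the helix, had 77.0 and 21.9 TPM in mESC, 91.5 and 106 TPM in NPC, and 46.9 and 39.7 TPM in NC and was not called in any comparison (limma adjusted p from 0.101 to 0.923). P4hb, its other subunit, ranged from 292 to 465 TPM and was not called either. P4ha3 rose in NC against NPC (2.68, adjusted p = 0.0225), with 26.6 and 6.01 TPM in NC, against 1.36 and 0.997 TPM in NPC. Fkbp10, a prolyl isomerase of the collagen machinery, was at 50.3 and 51.7 TPM in mESC, 15.0 and 18.1 TPM in NPC, and 46.5 and 73.3 TPM in NC. It fell by 1.57 in NPC against mESC (adjusted p = 0.00285) and rose by 1.76 in NC against NPC (adjusted p = 0.00531). P3h3 (1.74) and Creb3l1 (1.59), a transcription factor of secretory cells, rose in NPC against mESC, where Plod1, a lysyl hydroxylase, fell by 1.14. In NC against mESC the lysine-modifying Colgalt1 fell by 0.88 and Tmem38b, a channel of the endoplasmic reticulum, by 1.13.

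Processing and crosslinking genes divided by step. Bmp1, the protease that trims the end of fibrillar procollagens, had 11.9 and 5.06 TPM in mESC, 45.8 and 50.9 TPM in NPC, and 86.6 and 180 TPM in NC. It rose in NPC against mESC (2.48, adjusted p = 0.0055) and in NC against mESC (3.83, adjusted p = 0.000552). Pcolce, which enhances that trimming, had 97.5 and 101 TPM in mESC, 12.6 and 19.3 TPM in NPC, and 59.1 and 73.7 TPM in NC, a fall of 2.59 in NPC against mESC (adjusted p = 0.000327) and a rise of 2.01 in NC against NPC (adjusted p = 0.00357). Pcolce2 and the procollagen protease Adamts14 fell in NPC against mESC as well, by 3.13 and 3.10. Lox, the founding lysyl oxidase, stayed low at 0 and 0.0633 TPM in mESC, 0.172 and 0.319 TPM in NPC, and 3.33 and 1.41 TPM in NC (1.38 against NPC, adjusted p = 0.0263). Its relatives Loxl2 and Loxl3 rose in NPC against mESC (2.67 and 2.87) and Loxl1 in NC against NPC (2.28). Pxdn, peroxidasin, which crosslinks type IV collagen, rose in NPC against mESC (2.48, adjusted p = 0.000877), with 151 and 139 TPM in NPC, against 34.2 and 18.4 TPM in mESC. Of 13 tested genes 6 rose and 3 fell in NPC against mESC, 4 rose in NC against NPC, and 10 rose and 2 fell in NC against mESC. The shares called over all tested genes were 40.0%, 25.3% and 59.9%.

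Some receptors for collagen rose. Ddr1, a collagen-binding receptor tyrosine kinase, had 27.2 and 20.4 TPM in mESC, 88.6 and 154 TPM in NPC, and 292 and 253 TPM in NC, with adjusted p = 0.0013 in NPC against mESC and 0.024 in NC against NPC. Ddr2, the related receptor for fibrillar collagens, had 1.14 and 0.405 TPM in mESC, 1.11 and 2.23 TPM in NPC, and 7.77 and 26.6 TPM in NC (2.58 against NPC, adjusted p = 0.0209). Mrc2, which takes up collagen fragments, rose in NPC against mESC (2.47) and the integrin chain Itga1 in NC against NPC (1.46). Of 7 tested receptors 3 rose in NPC against mESC, 4 in NC against NPC and 5 in NC against mESC. Called among all tested genes were 40.0%, 25.3% and 59.9%, so the receptor share in NPC against mESC is near that of all genes. Itgb1, the beta chain that the collagen-binding integrins share, was called in none of these comparisons.

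The non-collagen parts of basement membranes moved both ways. Nid2, a linker of laminin and type IV collagen, had 362 and 183 TPM in mESC, 90.7 and 76.2 TPM in NPC, and 46.1 and 52.5 TPM in NC, falling in NPC against mESC by 1.62 (adjusted p = 0.00705). Lama5 fell in NPC against mESC (by 0.92) and in NC against NPC (by 1.35), while Smoc1 (2.14) and Smoc2 (1.49) rose in NPC against mESC. In NC against NPC the linker Nid1 (1.75) and the laminin chain Lama2 (0.87) rose, and Lama4 rose in NC against mESC (2.71), with 23.1 and 3.44 TPM in NC, against 0.710 and 0.463 TPM in mESC. Of 15 tested genes 2 rose and 2 fell in NPC against mESC, 2 rose and 1 fell in NC against NPC, and 5 rose and 2 fell in NC against mESC, where 40.0%, 25.3% and 59.9% of all tested genes were called.

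Of 15 tested interstitial matrix genes, 5 rose and 1 fell in NPC against mESC, 10 rose in NC against NPC and 13 rose in NC against mESC. Among all tested genes 40.0%, 25.3% and 59.9% were called, so the interstitial share in NPC against mESC is near that of all genes. Fn1, Fbln1, Vcan, Thbs1 and Fbn2 did not pass in NC against NPC. Tnc, the matrix glycoprotein tenascin-C of glia and fibroblasts, had 3.39 and 1.75 TPM in mESC, 0.345 and 0.573 TPM in NPC, and 86.4 and 216 TPM in NC (6.56 against NPC, adjusted p = 0.00286). Postn, periostin, which binds type I collagen, was at 0.178 and 0 TPM in mESC, 1.26 and 0.978 TPM in NPC, and 101 and 44.2 TPM in NC (5.0 against NPC, adjusted p = 0.00293). Fbn2, a microfibril component (3.95), and the proteoglycan Vcan (3.15) rose in NPC against mESC, where Fn1, fibronectin, fell by 1.78 (adjusted p = 0.0426), with 175 and 152 TPM in NPC, against 793 and 400.0 TPM in mESC.

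Among 9 tested turnover genes 4 were higher and 1 lower in NPC against mESC. In the step to NC 6 rose against NPC, and 7 rose against mESC. Over all tested genes 40.0% were called in NPC against mESC, 25.3% in NC against NPC and 59.9% in NC against mESC. Mmp16 (2.81) and Mmp15 (2.67), membrane-bound matrix metalloproteases, rose in NPC against mESC, where the inhibitor Timp1 fell by 2.57 (adjusted p = 0.00215). Timp1 and the gelatinase Mmp2 rose in NC against NPC (2.08 and 2.05), and Timp2 in NC against mESC (3.70, adjusted p = 0.000202).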

How the data were processed

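RNA of 6 E14TG2a libraries (2 per stage) was enriched for poly(A), depleted of rRNA and sequenced on an Ion Proton, per the labels' protocols. The submitters' processing notes name STAR 2.7.9a and StringTie 2.1.5 with cutadapt 3.4, FastQC, DESeq2, R 4.0.3 and the build mm10. Their order and settings, the annotation and any strand use are not given in the sources used. The deposited tables hold coverage (mean read depth over a gene), FPKM (scaled to gene length and library depth) and TPM (FPKM brought to an equal total per library) per gene, per the file headers, and no read counts. Aligned bases, from the ratio of deposited coverage to FPKM, were 1.57 to 2.27 Gb per library. Without counts, no counting interval can be given.

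Repeated lines of a gene ID were summed. The 20232 genes that reached 1 TPM in 2 or more of the 6 libraries were fitted with limma 3.58.1 in R 4.3.3 on log2(TPM + 1), with 1 coefficient per stage, eBayes with a trend, 3 residual degrees of freedom and a two-sided Benjamini-Hochberg threshold of 0.05. An exact permutation of 2 against 2 libraries cannot pass it. The script was tested on simulated data. The alternatives were pseudocounts of 0.1 and 0.5, no filter, TPM of at least 5, FPKM, median-of-ratios scaling, quantile normalization, a replicate block and leaving out each library. Ratios and shares were computed from TPM with Python 3.11.15 and pandas 2.3.3. Values per library are given for the 19 collagens with a mean of at least 10 TPM in a stage, and others by name where called or over 4-fold apart in NC with 5 TPM or more. Of each partner list and comparison, up to 2 called genes with the largest difference each way are named, with Serpinh1, P4ha1, P4hb and Lox. The collagens and all lists were chosen with earlier results of these data known. Promoter windows are RefSeq's on GRCm38.p6. The summed level of 1 marker list is not reported here.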

Additional observations from a re-analysis of the deposited data

How the results depend on the processing

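Of the calls of single collagens, 11 of 20 in NPC against mESC, 3 of 20 in NC against NPC (Col5a1, Col16a1 and Col6a3) and 25 of 29 in NC against mESC held under all alternatives run. A call was gained in 14 settings of single collagens, 11 of them with 1 library left out, and the others were Col6a3 and Col5a3 with a pseudocount of 0.1 and Col9a2 in NPC against mESC under quantile normalization (-1.30, adjusted p = 0.0293). In NC against NPC without the filter, 13 collagens, 3166 of all genes and 13 partner genes were called. Leaving out 1 library gave 12 to 17 collagens in NPC against mESC and 3 to 17 in NC against NPC. Over all genes it gave 4032 to 8484 in NPC against mESC and 309 to 4156 in NC against NPC, and of the partner genes 4 to 23 in NC against NPC. A left-out library leaves its stage with 1 library, assumed to vary like the others, and fewer samples. Under quantile normalization Col5a2 (-0.047) and Col20a1 (-0.17) in NPC against mESC and Col9a2 (-0.076) in NC against mESC changed sign, the cause was not tested, and none had been called in that comparison. Leaving out 1 library also turned uncalled differences, with ranges in NPC against mESC of -0.80 to 0.30 for Col1a1, -0.079 to 0.93 for Col1a2, -0.14 to 0.67 for Col5a2, -0.28 to 0.60 for Col20a1, -0.58 to 0.070 for Col8a1 and -0.80 to 0.030 for Col9a3. In NC against NPC the ranges were -0.0065 to 0.82 for Col11a1, -0.41 to 0.26 for Col22a1, -0.52 to 2.30 for Col26a1 and -0.26 to 0.11 for Col6a5, and in NC against mESC -0.22 to 2.05 for Col4a1 and -0.017 to 1.63 for Col5a3. The replicate block gave 19, 17 and 29 collagens in the 3 comparisons, but same-numbered libraries did not deviate together (correlations 0.0455, -0.0819 and -0.0703), so the numbers do not pair the samples. The tables give no counts, so the error of a low value rests on 2 libraries.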
